A study of Mus musculus with 9 samples.

Results

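Trophoblast transcription factors were followed as 10 mouse genes, Tead4, Cdx2, Gata3, Gata2, Eomes, Elf5, Tfap2c, Ets2, Ascl2 and Hand1, chosen by symbol out of 52609 annotated genes. Their levels were compared in 9 RNA sequencing libraries of lines labelled as mouse epiblast stem cells, a cell type derived from the post-implantation epiblast. The groups were a line without Dkk1, a secreted inhibitor of Wnt signalling (DKK1 KO line, here Dkk1_KO, 3 libraries), a line released from the inhibitor IWP2 after derivation (IWP2_removed, 2 libraries), a line kept with IWP2 (labelled Wnt inhibited, here IWP2, 2 libraries) and a control line (2 libraries). IWP2 blocks Porcupine, the enzyme that Wnt ligands need for secretion, and the protocol gives a dose of 5 µM. All 4 groups were grown with 20 ng/mL activin A and 10 ng/mL FGF2 on gelatin with inactivated mouse embryonic fibroblasts, so each library can hold feeder RNA. The labels state neither the Dkk1 allele nor whether a line is 1 clone, and they do not say whether replicates are separate cultures. P-values therefore measure the spread between these libraries, which may be technical.

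These factors act at successive steps of the trophoblast lineage, which forms the fetal part of the placenta. In the mouse blastocyst TEAD4, with its coactivators YAP1 and WWTR1, opens the programme, and CDX2 and GATA3 carry it in the trophectoderm. EOMES, ELF5, TFAP2C and ETS2 maintain trophoblast stem cells, while ASCL2 is needed for the spongiotrophoblast and HAND1 and GATA2 act in trophoblast giant cells. Most of them also work outside the placenta: EOMES, for example, is used in the primitive streak and GATA2 in blood.

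Depth ran between 10849490 and 17892751 estimated reads per library. Levels of different genes are compared in TPM, which divides reads by transcript length, and differences between groups in CPM, reads scaled to library size with TMM. A gene was called at an adjusted p below 0.05 from edgeR's quasi-likelihood test over 18096 genes, with Benjamini-Hochberg adjustment. The SE beside a fitted fold is that fold divided by the square root of the test's F statistic. It is approximate and can be too small for genes with few reads. Dkk1 itself had 0.190, 0.228 and 0.309 TPM in Dkk1_KO, 1.07 and 1.69 TPM in IWP2_removed, 0.945 and 0.0930 TPM in IWP2, and 2.36 and 2.64 TPM in control. It was lower in Dkk1_KO than in control by a log2 fold change of -3.13 ± 0.68 (SE, edgeR adjusted p = 0.00597), a call that ended when the Dkk1_KO libraries were averaged to 1 (adjusted p = 0.129). The Dkk1_KO libraries differed from each other by 1.76 to 2.21 per degree of freedom (chi-square over gene counts), against 36.8 for IWP2_removed, 90.7 for IWP2 and 30.6 for control, and all groups share 1 estimate of spread in the model. The epiblast marker Pou5f1 went against the cell type label in Dkk1_KO, and of 10 epiblast genes 6 fell there over control while 3 (Utf1, Pou3f1 and Dnmt3b) rose. Pou5f1 had 1.14 to 1.70 CPM in Dkk1_KO, against 534 and 736 CPM in IWP2_removed, 332 and 1113 CPM with IWP2, and 442 and 473 CPM in the control line.

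In Dkk1_KO over control, 9 of the 10 factors rose and none fell, with 0 lower by edgeR at an unadjusted p below 0.05 and 0 by DESeq2, and Ascl2 was not called. Over all genes tested, 21.3% were called higher in this comparison, so a high share of calls was common to the transcriptome. The median log2 fold change was 4.87 over the 10 factors, beside -0.03 over all genes. All 10 factors had every Dkk1_KO library above both control libraries, which 36.2% of all genes also had, while 37.2% had the reverse. The factors together made up 778 to 836 TPM in Dkk1_KO, 15.8 to 29.6 TPM in IWP2_removed, 9.74 to 20.2 TPM in IWP2 and 13.1 to 26.3 TPM in control. Elf5, Cdx2 and Hand1 passed the filter on low counts only through Dkk1_KO, since none of the other 6 libraries reached its level for them, so these 3 had to differ. Folds of genes low in control were smaller with limma on log2(TPM + 1), at 7.19 for Elf5, 8.52 for Hand1, 4.59 for Cdx2, 4.14 for Tfap2c, 3.77 for Tead4 and 2.45 for Gata2, and all 6 were still called. The comparisons with control share its 2 libraries. In bulk RNA, fewer cells of a type and less RNA per cell cannot be told apart.

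**Figure D1:**
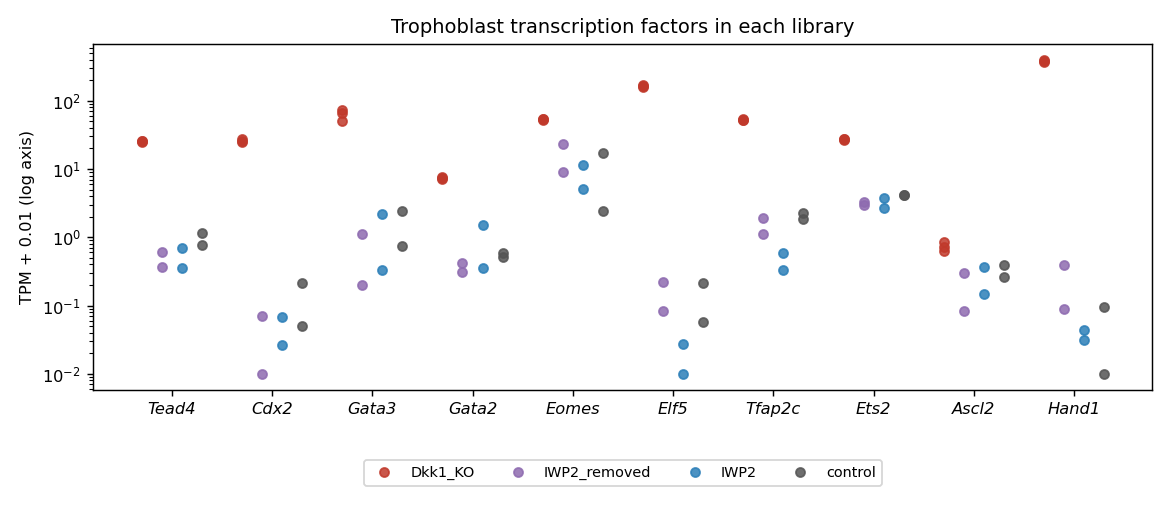
TPM of each trophoblast transcription factor, plus 0.01, on a log axis, with 1 point per library and groups side by side in the order Dkk1_KO, IWP2_removed, IWP2 and control. All Dkk1_KO points lie above the control points, with Hand1 at 372 to 399.6 TPM and Ascl2 at 0.621 to 0.832 TPM.

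Among the factors that open the programme, Tead4, the TEA-domain partner of YAP1, had 25.0, 25.5 and 26.0 TPM in Dkk1_KO, 0.596 and 0.361 TPM in IWP2_removed, 0.678 and 0.348 TPM in IWP2, and 1.14 and 0.772 TPM in control. The Dkk1_KO libraries agreed closely and lay far above the other 6. Tead4 rose in Dkk1_KO over control by 4.90 ± 0.27 on the log2 scale (SE, edgeR adjusted p = 5.44e-06). The gene (chr6:128224288-128300823, minus strand, GRCm38) has annotated starts at 128300813 and 128275577, and in Dkk1_KO the transcripts that begin there, Tead4-201 and Tead4-203, held 67.8% and 32.2% of its reads.

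Cdx2, the homeodomain factor of the trophectoderm, had 27.2, 24.6 and 26.2 TPM in Dkk1_KO, 0.0610 and 0 TPM in IWP2_removed, 0.0590 and 0.0168 TPM in IWP2, and 0.202 and 0.0398 TPM in control. Outside Dkk1_KO it was represented by 3 reads in IWP2_removed, 4 in IWP2 and 8 in control, against 3665 in Dkk1_KO. The rise over control was 8.17 ± 0.48 on the log2 scale (SE, edgeR adjusted p = 7.34e-06), and it was 9.38 without control replicate 1 and 7.37 without control replicate 2. Cdx2 (chr5:147300805-147307270, minus strand, GRCm38) has 1 annotated transcript. Its RefSeq promoter window is shown because the factor sits near the top of the programme. It covers the 250 bases before the RefSeq start, chr5:147307250-147307499 on the minus strand of GRCm38.p6, with an AP-2 motif (GCCNNNGGC) and an E-box (CAGCTG) in capitals. The transcript used for the reads starts at 147307270, so the AP-2 match lies inside it.
Cdx2 promoter: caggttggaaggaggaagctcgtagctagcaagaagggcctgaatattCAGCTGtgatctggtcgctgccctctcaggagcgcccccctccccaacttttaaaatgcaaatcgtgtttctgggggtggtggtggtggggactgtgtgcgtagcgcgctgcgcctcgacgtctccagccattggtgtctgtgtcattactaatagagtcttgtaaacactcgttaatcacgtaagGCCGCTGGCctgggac

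Gata3, a zinc-finger factor that acts beside Cdx2 in the trophectoderm, had 50.0, 74.1 and 66.7 TPM in Dkk1_KO, 1.12 and 0.187 TPM in IWP2_removed, 2.17 and 0.317 TPM in IWP2, and 0.732 and 2.45 TPM in control. Its rise in Dkk1_KO over control was 5.21 ± 0.36 on the log2 scale (SE, edgeR adjusted p = 1.37e-05). Most of the TPM came from a noncoding transcript of 243 bases, Gata3-205, which held 2.4% of the reads of the gene in Dkk1_KO and 79% of its TPM. Without transcripts shorter than 500 bases Gata3 averaged 12.4 ± 0.66 TPM in Dkk1_KO (SD, n = 3) and 0.648 ± 0.12 TPM in control (SD, n = 2). Gata3 lies on chr2:9857078-9890034 (minus strand, GRCm38). Overlapping genes held 21, 10 and 6 reads over the 9 libraries, against 2769 for Gata3, and whether counting used strand is not stated in the labels.

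Gata2, a related factor of giant cells and blood, was lower than Gata3 in each Dkk1_KO library. It had 7.21, 7.26 and 7.68 TPM in Dkk1_KO, 0.415 and 0.302 TPM in IWP2_removed, 1.50 and 0.342 TPM in IWP2, and 0.571 and 0.50 TPM in control. The rise in Dkk1_KO over control was 3.96 ± 0.61 on the log2 scale (SE, edgeR adjusted p = 0.00106). Gata2 (chr6:88193891-88207032, plus strand, GRCm38) has an upstream start at 88193891 and a downstream start at 88198334, a choice of features made after their values were seen. The upstream transcript held 717 reads and the downstream ones 29 in Dkk1_KO, with 99 in retained-intron transcripts that begin inside the gene. Per Dkk1_KO library 81.9% to 89.2% of reads fell to the upstream transcript, and in control, with 36 reads in all, 29 were upstream and none downstream. The window before the upstream start is shown since most reads fell to that start, chr6:88193641-88193890 (plus strand, GRCm38.p6).
Gata2 upstream promoter: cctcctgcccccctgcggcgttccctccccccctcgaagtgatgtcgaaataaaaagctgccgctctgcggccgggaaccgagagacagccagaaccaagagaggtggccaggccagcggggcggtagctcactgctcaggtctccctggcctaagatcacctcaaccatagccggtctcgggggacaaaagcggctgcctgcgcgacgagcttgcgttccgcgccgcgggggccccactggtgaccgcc
This window holds none of the motifs searched below and has 22 CpG dinucleotides, against a median of 6 over all windows.

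Among the stem-cell factors, Elf5, an ETS-domain factor whose promoter is silenced by DNA methylation in the embryonic lineage, had 162, 170.5 and 157 TPM in Dkk1_KO, 0.209 and 0.0734 TPM in IWP2_removed, 0 and 0.0171 TPM in IWP2, and 0.203 and 0.0468 TPM in control. That is 12815 reads in Dkk1_KO, 8 in IWP2_removed, 1 in IWP2 and 5 in control. It rose in Dkk1_KO over control by 10.65 ± 0.25 on the log2 scale (SE, edgeR adjusted p = 2.2e-07). With 5 control reads this fold is less certain than the SE makes it look, and the alternatives gave 7.19 to 11.25. The gene (chr2:103411688-103450989, plus strand, GRCm38) is annotated with upstream starts at 103411688 and 103411713 and downstream starts between 103424062 and 103424828.

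Nearly all Elf5 reads in Dkk1_KO were assigned to the downstream transcripts Elf5-201, Elf5-207 and Elf5-203, with 12581 reads, against 161 for the upstream group and 72 for transcripts that begin inside the gene. The downstream share was 98.4%, 98.2% and 98.0% in the 3 Dkk1_KO libraries. The coding transcript of the upstream start, Elf5-206, had no read, and the 161 upstream reads belonged to a retained-intron transcript. In control the downstream group had 1 read and the upstream group 3, too few for a share. The RefSeq window at the downstream start is shown since nearly all reads fell there, chr2:103423818-103424067 (plus strand, GRCm38.p6). Capitals mark a T-box motif (GGTGTG) and a CDX motif (TTTATG), both on the other strand.
Elf5 downstream promoter: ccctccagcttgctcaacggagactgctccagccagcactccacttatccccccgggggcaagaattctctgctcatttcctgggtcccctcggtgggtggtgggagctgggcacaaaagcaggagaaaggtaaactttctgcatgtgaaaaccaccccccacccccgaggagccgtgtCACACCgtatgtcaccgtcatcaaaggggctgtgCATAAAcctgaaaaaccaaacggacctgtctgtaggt
This window has 8 CpG dinucleotides.

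RefSeq windows were found for 7 of the 10 factors, 9 windows in all. The upstream one of Elf5, the downstream one of Gata2 and that of Ets2 lie after the annotated starts used for the reads. That of Cdx2 and the downstream one of Elf5 reach past such a start at their ends. On either strand the AP-2 motif was in 3 of the 9 windows and in 13.7% of all 32851 windows of the same length. The TEAD motif (GGAATG) was in 2 and in 12.6%, and the CDX motif in 1 and in 10.8%. The T-box motif was in 3 and in 16.3%, the E-box in 2 and in 13% and the ETS motif (CCGGAA) in 1 and in 12%. The GATA motif (AGATAA) was in none of the 9 and in 9.99% of all windows. No 2 marked matches overlapped in the windows printed here. A match is a stretch of letters and does not show binding.

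Eomes, a T-box factor of trophoblast stem cells and of the primitive streak, had 53.2, 53.7 and 52.8 TPM in Dkk1_KO, 23.0 and 8.91 TPM in IWP2_removed, 11.5 and 5.06 TPM in IWP2, and 17.1 and 2.43 TPM in control. It was the most abundant of the factors by mean TPM in each group other than Dkk1_KO, and its control libraries differed by a wider ratio of TPM than those of any other factor with at least 10 reads there. Its rise in Dkk1_KO over control was 2.73 ± 0.70 on the log2 scale (SE, edgeR adjusted p = 0.0133). The value was 4.53 without control replicate 1 (adjusted p = 0.00222) and 1.97 without control replicate 2 (adjusted p = 0.0289), and the call ended with the Dkk1_KO libraries averaged to 1 (2.75, adjusted p = 0.0925). Eomes lies on chr9:118478212-118486132 (plus strand, GRCm38), and its antisense neighbour Gm33460 held 73 reads over all libraries, against 16514 for Eomes.

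Eomes stood beside different genes in Dkk1_KO and in the other lines. In CPM, Eomes was 280.2, 280.1 and 277 in Dkk1_KO, 108 and 45.6 in IWP2_removed, 50.6 and 28.0 in IWP2, and 72.4 and 12.1 in control. T (Brachyury), the T-box factor that defines the primitive streak, was at 3.15, 2.43 and 3.33 CPM in Dkk1_KO, 54.1 and 30.2 CPM in IWP2_removed, 136 and 28.4 CPM with IWP2, and 103 and 53.3 CPM in the control line. T therefore was low where Eomes was high in Dkk1_KO, while in each of the other 3 groups the library with more Eomes also had more T. In all 3 it was replicate 1, and libraries of the same number in these groups also deviated together over all genes, so they are not 3 separate observations. That library also had more Mixl1, Gsc, Lhx1 and Wnt3, other streak genes, in all 3 of those groups. Mesp2 and Foxf1, of the same list, were lower there in all 3, and Fgf8 followed Eomes only in control. The streak genes beside T and Fgf8 were chosen after their values were seen, and the part of streak-like cells in the Eomes level was not tested.

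**Figure D2:**
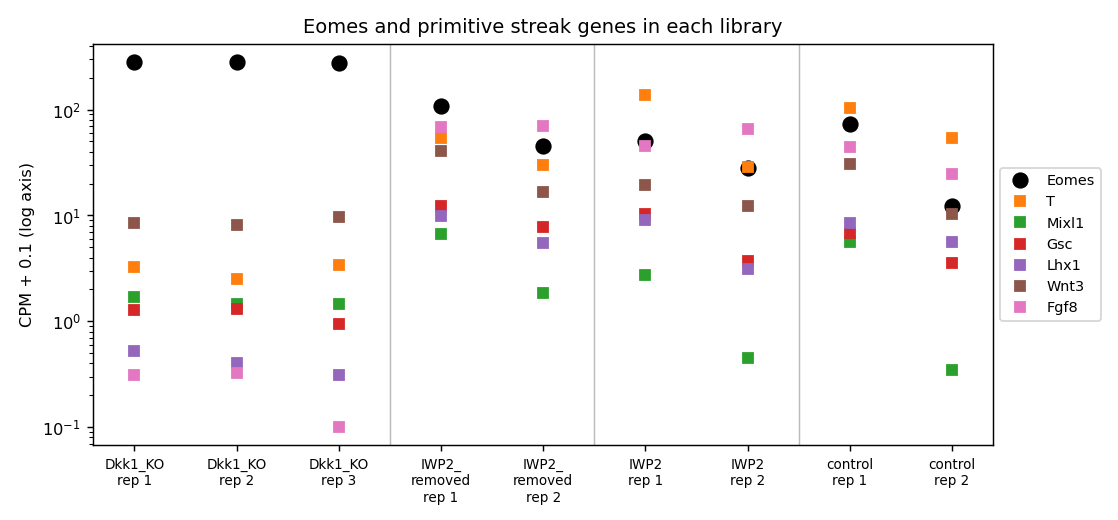
CPM plus 0.1, on a log axis, of Eomes (black circles) and 6 primitive streak genes (squares) in each of the 9 libraries, grouped as Dkk1_KO, IWP2_removed, IWP2 and control. Eomes stands at 277 to 280.2 CPM in Dkk1_KO, where T is at 2.43 to 3.33 CPM, whereas in each other group the library higher in Eomes is also higher in T.

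Tfap2c, the AP-2 factor that trophoblast stem cells share with germ cells, had 53.5, 52.3 and 53.0 TPM in Dkk1_KO, 1.09 and 1.91 TPM in IWP2_removed, 0.324 and 0.572 TPM in IWP2, and 1.87 and 2.27 TPM in control. Both IWP2 libraries were the lowest of the 9. Tfap2c rose in Dkk1_KO over control by 4.83 ± 0.43 on the log2 scale (SE, edgeR adjusted p = 5.08e-05). The gene (chr2:172549593-172558622, plus strand, GRCm38) was read in Dkk1_KO mainly as Tfap2c-201, with 54.8% of its reads, followed by the noncoding Tfap2c-204 with 22.6% and Tfap2c-206 with 14.3%.

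Ets2, which acts downstream of FGF signalling in trophoblast stem cells, was at 27.4, 27.3 and 26.5 TPM in Dkk1_KO, 2.96 and 3.33 TPM in IWP2_removed, 3.78 and 2.70 TPM in IWP2, and 4.20 and 4.18 TPM in control. It had 607 reads in control, so its fold is among the better measured. The rise in Dkk1_KO over control was 2.92 ± 0.14 on the log2 scale (SE, edgeR adjusted p = 3.34e-06). The gene lies on chr16:95702075-95721051 (plus strand, GRCm38).

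Of the factors of later trophoblast, Hand1, a basic helix-loop-helix factor of giant cells, had 372, 399.6 and 377 TPM in Dkk1_KO, 0.0788 and 0.377 TPM in IWP2_removed, 0.0344 and 0.0217 TPM in IWP2, and 0.0869 and 0 TPM in control. With 23865 reads in Dkk1_KO and 2 in control, the ratio was 7840 (95% counting interval 2170 to 64700), and the edgeR adjusted p was 8.05e-07. Its fitted log2 fold change moved between 11.62 without control replicate 2 and 16.14 without control replicate 1, which follows from these 2 reads being in 1 library. Such intervals hold only the error of counting, because reads copied by PCR do not stand for separate molecules. Hand1 lies on chr11:57828705-57832818 (minus strand, GRCm38). A coding transcript of 354 bases, Hand1-202, held 5.6% of its reads and 47% of its TPM in Dkk1_KO, and without it Hand1 averaged 202 ± 4.1 TPM (SD, n = 3), still the highest of the factors.

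Ascl2, a helix-loop-helix factor of the spongiotrophoblast, was the exception, with 0.704, 0.832 and 0.621 TPM in Dkk1_KO, 0.0724 and 0.292 TPM in IWP2_removed, 0.140 and 0.358 TPM in IWP2, and 0.249 and 0.383 TPM in control. It had 68 reads in Dkk1_KO and 18 in control. All Dkk1_KO libraries lay above the others, but the log2 fold change of 1.35 ± 0.68 (SE) had an edgeR adjusted p of 0.144. Ascl2 was called with the Dkk1_KO and control libraries alone (1.32, edgeR adjusted p = 0.0231) and with limma on log2(TPM + 1) (0.38, adjusted p = 0.0432). The gene lies on chr7:142966829-142969264 (minus strand, GRCm38).

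**Figure D3:**
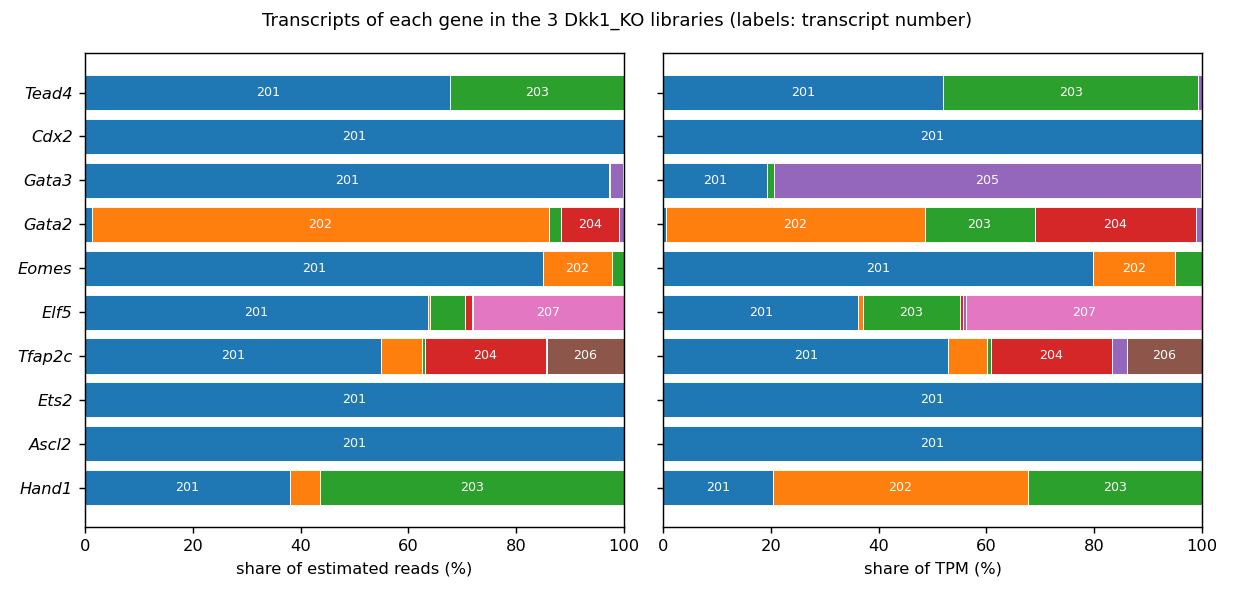
Share of each factor's estimated reads (left) and TPM (right) held by each annotated transcript in the 3 Dkk1_KO libraries, in percent, with the number of the transcript written in pieces of at least 9%. Short transcripts weigh more in TPM than in reads, as Gata3-205 does with 79% of the TPM and 2.4% of the reads.

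The order of levels in Dkk1_KO depended on those short transcripts. Summed over all transcripts, Hand1 (383 ± 15 TPM), Elf5 (163 ± 6.9) and Gata3 (63.6 ± 12) led, each a mean and SD over 3 libraries. Without transcripts under 500 bases Gata3 moved to place 8, and Eomes (53.2 ± 0.45 TPM) and Tfap2c (51.5 ± 1.2 TPM) followed Hand1 and Elf5. Eomes and Tfap2c differed by little more than the SD of Tfap2c, and Ets2 (27.1 ± 0.47), Cdx2 (26.0 ± 1.3) and Tead4 (25.4 ± 0.60) followed, with neighbours that differed by less than the SD of Cdx2. Gata2 (5.88 ± 0.42 TPM) and Ascl2 (0.719 ± 0.11 TPM) were the lowest.

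The relatives of each factor showed which member of its family predominated. These families were set out after values were seen. Among Tead1 to Tead4, counting transcripts of at least 500 bases, Tead4 was 30.5% to 31.1% of the family's TPM in Dkk1_KO, 0.301% to 0.520% in IWP2_removed, 0.279% to 0.566% in IWP2 and 0.894% to 1.16% in control. With the short transcripts, which are mostly of Tead2, the share was 12.2% to 12.7% in Dkk1_KO and 0.229% to 0.307% in control. Tead2 fell in Dkk1_KO over control by 0.95 ± 0.16 on the log2 scale (SE, edgeR adjusted p = 0.00144), Tead3 rose by 0.81 ± 0.14 (adjusted p = 0.00164), and Tead1 was not called (-0.12 ± 0.30, adjusted p = 0.78).

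For the AP-2 family, Tfap2c made up 89.7% to 92.9% of the TPM in Dkk1_KO, 28.5% to 53.4% in IWP2_removed, 2.82% to 27.8% in IWP2 and 48.5% to 60.7% in control. In the IWP2 libraries Tfap2b and Tfap2a held most of the rest. Hand1 was 99.8% to 99.9% of Hand1 plus Hand2 in Dkk1_KO, and 0% to 21.3% in control. Gata1 and Gata4 rose with Gata2 and Gata3, Gata4 by 3.79 ± 0.37 and Gata1 by 4.75 ± 0.57 on the log2 scale (SE, edgeR adjusted p = 9.45e-05 for Gata4 and 0.000284 for Gata1). Of the 23 relatives listed, 17 were tested, of which 10 rose and 3 fell in Dkk1_KO over control, with a median log2 fold change of 1.32. Of all genes tested in that comparison, 21.3% were called higher and 23% lower.

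**Figure D4:**
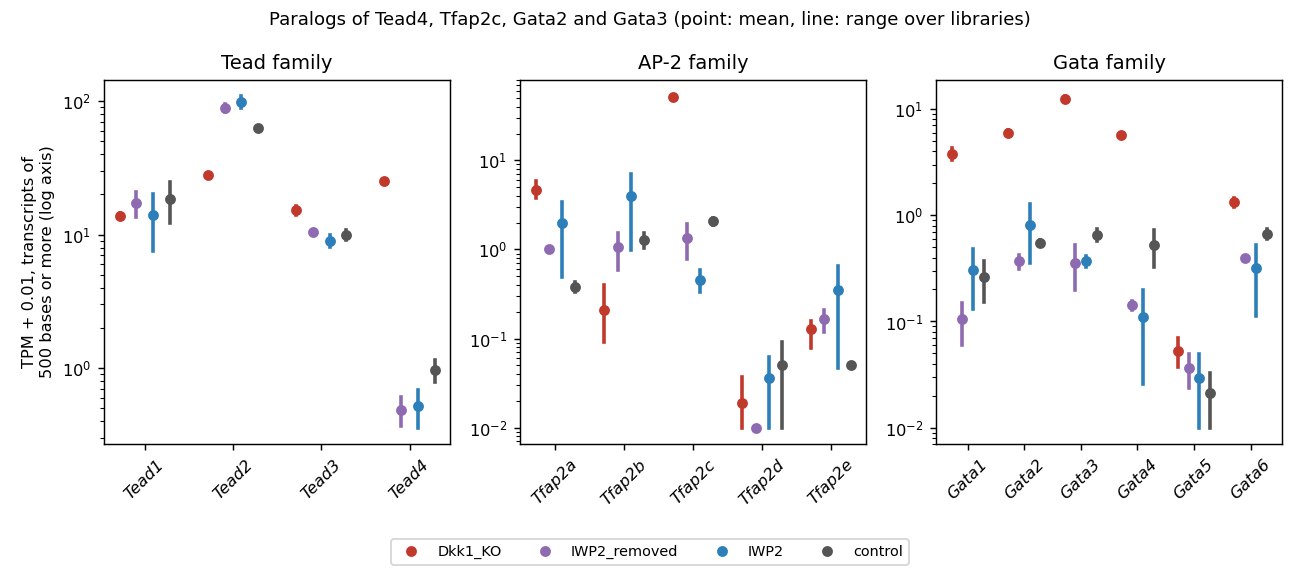
TPM plus 0.01, on a log axis, of the Tead, AP-2 and Gata genes, counting transcripts of at least 500 bases, with groups side by side in the order Dkk1_KO, IWP2_removed, IWP2 and control (points, means; lines, range over libraries). In Dkk1_KO Tead4 averages 25.4 TPM and Tead2 27.8 TPM, with Tead4 lower in every library, while in control Tead2 averages 63.1 TPM and Tead4 0.956 TPM.

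Genes that work with the factors moved in both directions, in a comparison where 21.3% of all genes were called higher and 23% lower. Of 16 further genes of the trophoblast stem-cell network, 9 rose in Dkk1_KO over control, 2 fell and 5 were not called (median 1.13). Bmp8b, a BMP ligand of the extraembryonic ectoderm, averaged 260.2 ± 7.4 CPM over the 3 Dkk1_KO libraries, against 0.738 ± 0.34 CPM over the 2 control libraries (± SD). Esrrb, the nuclear receptor needed for trophoblast stem cells, averaged 268 ± 1.5 CPM in Dkk1_KO and 1.05 ± 0.099 CPM in control (edgeR adjusted p = 1.11e-06), and Fgfr2, the FGF receptor of these cells, averaged 293 ± 7.0 CPM in Dkk1_KO and 29.1 ± 0.54 CPM in control (edgeR adjusted p = 1.19e-06).

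Of 16 Hippo pathway genes, which control TEAD activity, 4, Amotl2, Stk4, Wwtr1 and Yap1, rose and 1 fell in Dkk1_KO over control. The coactivators moved by small folds, Wwtr1 by 0.39 ± 0.12 and Yap1 by 0.30 ± 0.10, and the kinase scaffold Sav1 fell by 0.68 ± 0.11 on the log2 scale (SE, edgeR adjusted p = 0.00161). Of 15 protein partners, 4 rose and 5 fell: Zfpm1, a cofactor of GATA factors, rose by 3.92 ± 0.15 (adjusted p = 1.27e-06) and the coactivator Cited1 by 6.31 ± 0.33. The E proteins Tcf3 and Tcf12, dimer partners of helix-loop-helix factors such as HAND1 and ASCL2, fell by 1.76 ± 0.16 and 2.09 ± 0.23.

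A list drawn up for differentiated trophoblast numbered 22 genes, of which 14 were tested, 10 rose and none fell in Dkk1_KO over control (median 3.54). Those that rose include Krt7, Krt8, Krt18 and Krt19, keratins of epithelia in general, so the count does not measure differentiation. Over all genes tested, 21.3% were called higher and 23% lower in this comparison. Among the keratins, Krt18 stood at 1108 ± 16 CPM over the Dkk1_KO libraries, against 36.2 ± 22 CPM over both control ones, and Krt7 at 190.3 ± 4.4 CPM in Dkk1_KO, against 2.48 ± 0.36 CPM in control. Of the genes of placental hormones and spongiotrophoblast, Prl3d1, Prl3b1 and Prl8a8 had no read in Dkk1_KO, Tpbpa had 2 and Tpbpb 1. Prl2c2, another prolactin-family hormone, had 252 reads there and averaged 6.05 CPM in Dkk1_KO and 1.60 CPM in control, a log2 fold change of 1.94 ± 0.81 that was not called (SE, edgeR adjusted p = 0.0841). The 22 genes summed to 1117 to 1151 TPM in Dkk1_KO and 90.6 to 98.1 TPM in control. That sum mixes very unequal genes. In Dkk1_KO, Krt18 and Peg10, which was not called, averaged 1108 and 1048 CPM. Gcm1, which was called higher, averaged 0.883 CPM there, and Syna and Synb, which were not tested, had 20 and 5 reads.

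Markers of other cell types were counted in the same comparison, where 21.3% of all genes were called higher and 23% lower. Surface ectoderm and amnion genes, which share Tfap2a and Grhl2 with trophoblast, rose in 7 of 11 tested genes and fell in 1, and summed to 166 to 181 TPM in Dkk1_KO and 106 to 139 TPM in control. Feeder fibroblast genes fell in 7 of 12 and rose in none, with a sum of 733 to 754 TPM in Dkk1_KO and 1339 to 1376 TPM in control. Epiblast genes fell in 6 of 10 and rose in 3 (198.8 to 214 TPM in Dkk1_KO, 918 to 1246 TPM in control), and streak and mesoderm genes fell in 4 of 11 and rose in 2 (7.52 to 8.37 TPM in Dkk1_KO, 58.6 to 135 TPM in control). Of 7 blood genes tested 2, Gata1 and Cdh5, were higher, of 8 endoderm genes 1 was higher and 4 lower, and of 5 germ cell genes 3 were higher. Their part in the levels of the 10 factors was not tested.

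In the inhibitor groups none of the 10 factors was called by edgeR, over control or between IWP2_removed and IWP2. In IWP2_removed over control 0.669% of all genes were called higher and 0.586% lower. The median over the factors was -0.22, with 1 of them at an unadjusted p below 0.05 and none called by DESeq2. Tead4 and Ets2 had both IWP2_removed libraries below both control libraries, as 19.2% of all genes did, and Elf5 had both above, as 19.3% did, on 8 reads against 5. Tead4 averaged 1.59 ± 0.66 CPM in IWP2_removed and 3.12 ± 0.37 CPM in control (SD, n = 2 each), a log2 fold change of -0.95 ± 0.30 (SE, edgeR adjusted p = 0.222). Among listed non-members, Elf4 fell and Ehf rose, both ETS-domain relatives of Elf5. Such calls rest on the spread estimate shared with the Dkk1_KO libraries. Without those libraries 1 gene was called higher and 0 lower over all genes, so Elf4 was then not called.

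In IWP2 over control, 1.27% of all genes were called higher and 0.917% lower, the median over the factors was -0.32, and 3 factors, Elf5, Tead4 and Tfap2c, had an unadjusted p below 0.05. DESeq2 called 2 of them lower. Tfap2c averaged 1.78 ± 0.94 CPM in IWP2 and 7.72 ± 2.1 CPM in control (SD, n = 2 each), a log2 fold change of -2.13 ± 0.47 (SE, edgeR adjusted p = 0.0601). It lay near the threshold and was called under 9 of 23 alternatives. The single omissions given next are only those under which it was called. Among single libraries left out, the edgeR adjusted p was 0.0496 without IWP2 replicate 2 (-2.81), 0.0348 without IWP2_removed replicate 1 and 0.0349 without IWP2_removed replicate 2.

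Tead4 averaged 1.50 ± 0.48 CPM in IWP2 and 3.12 ± 0.37 CPM in control, a log2 fold change of -1.04 ± 0.30 (SE, edgeR adjusted p = 0.122), and it was called without IWP2 replicate 1 (-1.42, adjusted p = 0.0349). Ets2, Elf5, Tfap2c and Tead4 had both IWP2 libraries below both control libraries, as 17.3% of all genes did. Elf5 had 1 read in IWP2 and 5 in control, a ratio of 0.155 (95% counting interval 0.00328 to 1.39), which does not separate them at this depth. The other factors overlapped, with Eomes at 39.3 ± 16 CPM with IWP2, against 42.3 ± 43 CPM in control (-0.09 ± 0.70, edgeR adjusted p = 0.972). Among listed non-members in this comparison, Klf5, Gata4, Elf4, Krt7 and Grhl2 fell and Ehf rose. These calls also rest on the shared spread estimate. Over all genes, 6 were called higher and 6 lower without the Dkk1_KO libraries, and 0 and 1 with the 2 groups alone. Krt7 averaged 0.791 ± 0.30 CPM in IWP2 and 2.48 ± 0.36 CPM in control (edgeR adjusted p = 0.0292).

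In IWP2_removed over IWP2, where 0.0387% of all genes were called higher and 0.0221% lower, the median over the factors was 0.10 and 2 factors, Elf5 and Tfap2c, had an unadjusted p below 0.05. DESeq2 called 1. Tfap2c averaged 5.38 ± 3.3 CPM in IWP2_removed and 1.78 ± 0.94 CPM in IWP2 (SD, n = 2 each), a log2 fold change of 1.60 ± 0.47 (SE, edgeR adjusted p = 0.28). Elf5 had 8 reads in IWP2_removed and 1 in IWP2, a ratio of 8.68 (95% counting interval 1.16 to 385). Elf5, Tfap2c and Hand1 had both IWP2_removed libraries above both IWP2 libraries, as 13.2% of all genes did, and Hand1 did so on 5 reads against 2.

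**Figure D5:**
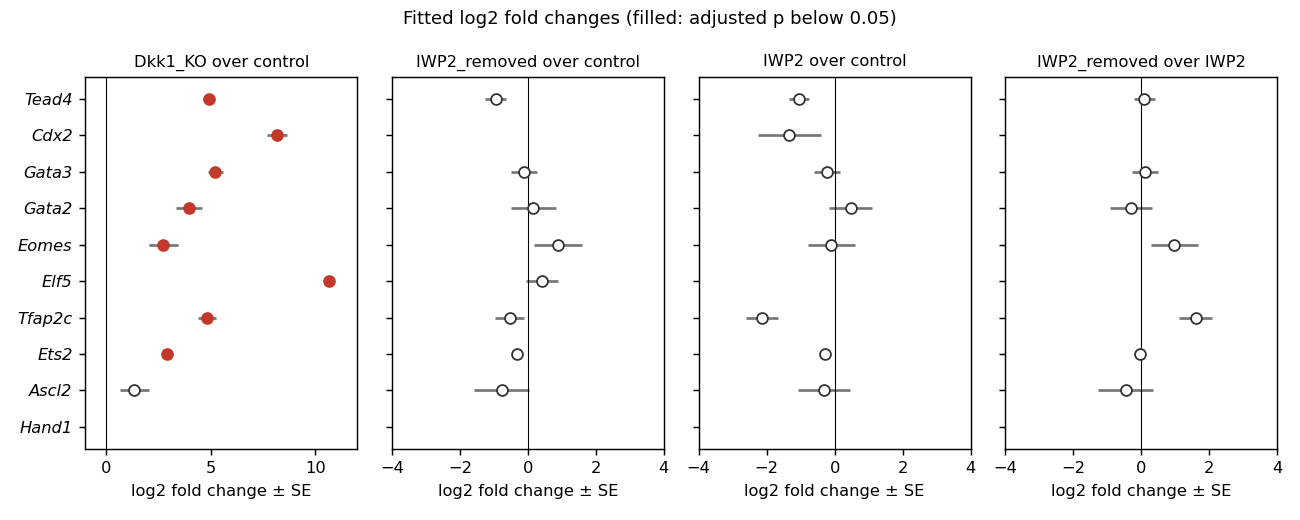
Fitted log2 fold changes with SE of the 10 factors in the 4 comparisons, filled where the edgeR adjusted p is below 0.05. Points are left out where a group has 3 reads or fewer, and the left panel has its own scale; only there are points filled, from 2.73 for Eomes to 10.65 for Elf5.

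The genes whose pattern over the 9 libraries lay nearest each factor were found by the root mean square difference of centred log2(CPM + 0.5). Candidates were 13703 genes whose mean reached 1 CPM, leaving out pseudogenes, predicted genes and genes named only by a clone. The pattern is largely the contrast of 3 Dkk1_KO libraries with 6 others, so these values are a description. Elf5 was nearest to Rhox9 (0.241) and Rhox6 (0.359), and Hand1 to Rhox5 (0.294), homeobox genes of the X-linked Rhox cluster expressed in placenta, and then to Elf5 (0.504). Gata2 was nearest to Grhl3 (0.239), an epithelial factor, and to Irx4 (0.312). Cdx2 lay nearest to Sfn (0.206) and Cdcp1 (0.271), and Tfap2c to Got1l1 (0.394) and Erbb3 (0.430). For Gata3 they were Bin2 (0.217) and Zfp936 (0.221), for Ascl2 Ak8 (0.125) and Tst (0.144), and for Tead4 AU015836 (0.253) and Cblc (0.260). Ets2 was closest to Hk1 (0.091), a hexokinase, and Esyt3 (0.140), and Eomes to Cd68 (0.422) and Nexmif (0.470).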

How the data were processed

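Each of the 9 deposited tables lists transcripts with TPM and expected counts (estimated reads, not whole), which the authors made with Salmon, per the submitters' processing notes, which also name DESeq2 and edgeR without versions. Libraries were TruSeq stranded mRNA, per the labels' protocols. The transcriptome build and the strand setting are not given in the sources used here. Transcripts were matched by stable identifier to GENCODE vM21 (GRCm38). In each library 219 of 133618 did not match and held 0.117% to 0.161% of reads.

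Counts were summed per gene, rounded and tested with edgeR 4.0.16 in R 4.3.3 (quasi-likelihood, TMM, filterByExpr, 1 model with 9 libraries and no replicate term). The biological coefficient of variation was 0.229. TPM were summed per gene, also without transcripts under 500 bases. Promoter windows are from RefSeq (GRCm38.p6). The pipeline was tested on simulated data. Figures were drawn with matplotlib 3.10.9.

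The factors and the lists beside them were chosen with earlier results of these data known. Named genes are the 10 factors, Dkk1, up to 4 called genes per list with the smallest adjusted p, the 2 nearest genes per factor, and transcripts with at least 10% of a gene's TPM. Some genes that this rule names are not reported here. Alternatives were other scalings and filters, DESeq2 1.42.0, limma 3.58.1 on log2(TPM + 1) or log2(TPM + 0.1), a length offset, replicate blocks, other sample sets, averaging Dkk1_KO, and leaving out each library.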

Additional observations from a re-analysis of the deposited data

How the results depend on the processing

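In Dkk1_KO over control, the counts of 9 factors higher and 0 lower stayed within 1.5 times under every alternative run, although Eomes lost its call with Dkk1_KO averaged and Ascl2 gained one under 2. No factor's called direction was reversed. On log2(TPM + 0.1) with limma the Dkk1_KO over control values were 9.6 for Elf5, 11.45 for Hand1 and 6.99 for Cdx2, and a transcript length offset gave 11.25 for Elf5. In IWP2 over control, 0 factors were lower by edgeR, but 2 by DESeq2 and 2 without the filter on low counts (Tfap2c and Tead4), and 1 with limma on log2(TPM + 0.1). Replicate numbers were shared by the groups. Libraries with the same number deviated together among IWP2_removed, IWP2 and control (r between 0.452 and 0.677), and these groups give only 2 pairs. With Dkk1_KO libraries of the same number r lay between -0.115 and -0.026. File letters differ there: replicates 1 and 2 are A and B in Dkk1_KO but B and C in the other groups. Libraries of the same letter were not compared with Dkk1_KO, so a deviation shared by letter was not tested. The replicate block called 1 factor lower in IWP2 over control (Tfap2c, adjusted p = 0.0315), as did the replicate block by file letter (1, adjusted p = 0.0235) and, added after the data were seen, the block without the Dkk1_KO libraries (1, adjusted p = 0.024). Leaving out single libraries gave 0 to 1. In IWP2_removed over IWP2, 1 factor (Tfap2c) was higher by DESeq2 and 1 without the filter.

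Over all genes, 3857 were called higher and 4161 lower in Dkk1_KO over control, but 1355 and 1369 with Dkk1_KO averaged to 1, and 2550 and 3937 with limma on log2(TPM + 1). In IWP2 over control they were 230 and 166, but 6 and 6 without the Dkk1_KO libraries, 0 and 1 with the 2 groups alone and 1147 and 1285 without IWP2 replicate 1. In IWP2_removed over control they were 121 and 106, but 1 and 0 without Dkk1_KO and 362 and 370 without the filter. In Dkk1_KO over control, limma on log2(TPM + 0.1) gave a median log2 fold change of -0.213 over all genes, against -0.03 in the main fit. The share of calls that were higher was 36.8% there. Depth limits Elf5, Cdx2, Hand1 and Ascl2 outside Dkk1_KO, with 18 reads or fewer per group.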
